A study of Homo sapiens with 12 samples.

Results

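The kinase core of the Hippo pathway and its upstream regulators were followed as 10 genes in HK-2, an immortalised line of human kidney tubule epithelial cells. The genes were matched by symbol to Ensembl identifiers, and all 10 were found among the 40649 genes of each count table and among the 19268 that passed the filter on low counts. They are TAOK1, NF2 and WWC1, which act upstream, the kinases STK4 and STK3 with their adaptor SAV1, and the kinases LATS1 and LATS2 with their co-activators MOB1A and MOB1B. Polyadenylated RNA was counted in 12 libraries, 4 per group. The YH libraries, labelled Yap1 knockdown, and the H2O2 libraries, which carry the control hairpin ShNC, came from cells given 150 µM hydrogen peroxide for 48 h. The ShNC libraries carry the same control hairpin and no hydrogen peroxide. Cells with the YAP1 hairpin and no peroxide were not analysed here, so the hairpin and the peroxide were compared only in this one combination. The labels state neither separate cultures nor the number of hairpins or clones, so p-values measure the spread between these libraries, which may be technical.

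In the Hippo pathway TAOK kinases phosphorylate and activate the MST kinases, encoded by STK4 (MST1) and STK3 (MST2). With the adaptor SAV1 these phosphorylate the LATS kinases and their MOB1 co-activators, and active LATS kinases phosphorylate the co-activators YAP and TAZ, which then stay out of the nucleus. NF2 (merlin) and WWC1 (KIBRA) are scaffolds that bring the kinases together at the membrane, and in other human cells LATS2 and NF2 are known as targets of YAP and TEAD, a feedback of the pathway on itself. In kidney tubule cells the pathway is known for its part in growth and repair after injury. Kinase activity is set largely by phosphorylation, which counts of mRNA do not measure.

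YAP1, the gene the hairpin targets, was at 131, 135, 111 and 136 CPM (a gene's share of its library's counts) in YH replicates 1 to 4, 155, 151, 155 and 163 CPM in H2O2 and 136, 130.2, 140.4 and 124 CPM in ShNC. It was lower in YH than in H2O2 (-0.29 ± 0.069 on the log2 scale, adjusted p = 0.00346, exact two-sided permutation p = 0.0286, the smallest that 70 assignments allow) but was not detectably apart from ShNC (-0.049 ± 0.069, adjusted p = 0.636; exact permutation p = 0.6; 95% interval -0.20 to 0.099). H2O2 itself was above ShNC in YAP1, with no overlap of libraries (0.24 ± 0.069, adjusted p = 0.0104, exact permutation p = 0.0286). With the shift of neighbouring genes removed, as described below, that rise did not pass (0.17, adjusted p = 0.0565). The difference of YH from H2O2 then did (-0.23, adjusted p = 0.0168). The mRNA level was thus lower in YH only against H2O2. In that comparison 21.0% of all tested genes were called lower, and libraries did not overlap for 45.2%. The difference by itself does not bear out the label, and every direction given for YH is that of libraries so labelled. CPM are scaled by TMM factors throughout, ± is the SD of 4 libraries for CPM and the standard error for a log2 fold change, and adjusted p-values come from edgeR's quasi-likelihood test over all 19268 genes.

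Total counts ran from 30789997 to 46582873 per library, and each of the 10 genes had between 926 and 10828 counts in every library. Transcripts of the mitochondrial genome took 11.3% of the counts of YH replicate 3 and 13.9% of those of ShNC replicate 4, while the remaining 10 libraries gave 4.54% to 5.64% to them. These 2 libraries also stood far from their replicates over genes in general, by chi-square per degree of freedom between replicates. It was 109 to 133 for pairs with YH replicate 3 and 156 to 181 with ShNC replicate 4, against at most 6.99 for other pairs. ShNC replicate 4 also stood away from the other ShNC libraries in many of the 10 genes. Results without both libraries are given beside those that rest on them. Kidney epithelial markers were present, with all 8 at a mean of at least 1 CPM (PAX8 at 319, 244 and 426 CPM in YH, H2O2 and ShNC), whereas only 2 of 9 proximal tubule markers reached that level and LRP2, which encodes megalin, was at 0.085, 0.052 and 0.024 CPM. None of 4 endothelial and 5 leukocyte markers reached 1 CPM. Of 6 fibroblast markers 4 did. The summed level of the 6 was 143 to 172 CPM in YH, 236 to 255 CPM in H2O2 and 109.9 to 113 CPM in ShNC, most of it LUM. COL1A1 was at 10.1, 26.6 and 10.1 CPM in YH, H2O2 and ShNC, and PDGFRA at 0.071 CPM or less in each group. In bulk RNA, fewer cells of a kind and less RNA per cell cannot be told apart.

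With hydrogen peroxide, in H2O2 against ShNC, WWC1, STK3 and LATS2 fell and SAV1, MOB1A and MOB1B rose. Those are 3 of 10 members lower, where 22.6% of all tested genes were called lower, and 3 of 10 higher, where 23.9% were. In YH against H2O2 WWC1, STK3, LATS1 and LATS2 rose (4 of 10, against 22.0% of all genes) and SAV1, MOB1A and MOB1B fell (3 of 10, against 21.0%). In YH against ShNC LATS1 and LATS2 rose (17.4% of all genes) and WWC1 and MOB1A fell (15.1%). The comparisons share libraries, so their counts are not independent of each other. Without ShNC replicate 4 and YH replicate 3 the calls were 5 higher and 4 lower in H2O2 against ShNC (backgrounds 29.8% and 29.6%), the same 4 and 3 genes in YH against H2O2 (28.8% and 28.5%), and 4 and 4 in YH against ShNC (24.0% and 22.8%). The members' shares lie near or moderately above those of all genes, and no more is read from the counts. Libraries of the compared groups did not overlap for 4 of 10 members in H2O2 against ShNC (48.0% of all genes), for 7 in YH against H2O2 (45.2%) and for 3 in YH against ShNC (29.7%).

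**Figure D1:**
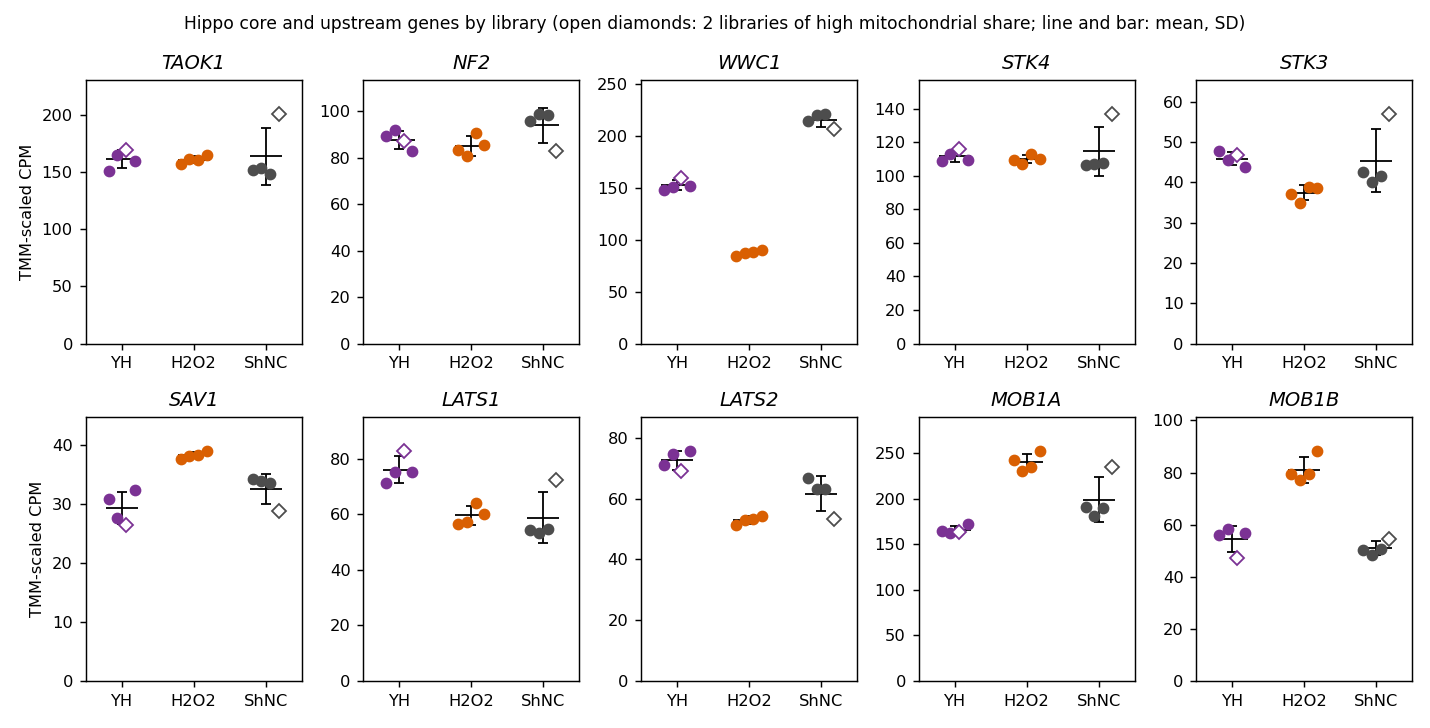
TMM-scaled CPM of the 10 genes in each of the 12 libraries, by group (YH, H2O2, ShNC); points are libraries, open diamonds YH replicate 3 and ShNC replicate 4, and the line and bar the mean and SD of 4. WWC1 separates all 3 groups, with 84.2 to 90.3 CPM in H2O2, while ShNC replicate 4 sits away from the other ShNC libraries for TAOK1, STK4, STK3, SAV1 and LATS1.

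Promoter sequences of 3 genes whose changes stand out were read from RefSeq on GRCh38.p14, 5′ to 3′ on each gene's strand. WWC1 and MOB1B are shown as the largest fall and the largest rise with hydrogen peroxide among the 10 genes, by the 250 bases before the start that RefSeq gives. RefSeq's starts differ from those of the GENCODE annotation used for the gene positions, lying upstream of them at WWC1 and LATS2 and inside the gene at MOB1B, so the end of the MOB1B stretch falls within the GENCODE gene. LATS2 is shown as the only one of 9 members in the table with the TEAD motif GGAATG or its reverse complement CATTCC in the 300 bases from 250 before to 50 after a start. The capitals mark that match, which begins at base 10 counted from the RefSeq start and lies before the GENCODE start, and 30 bases around it are printed.
WWC1, chr5:168291395-168291644, + strand: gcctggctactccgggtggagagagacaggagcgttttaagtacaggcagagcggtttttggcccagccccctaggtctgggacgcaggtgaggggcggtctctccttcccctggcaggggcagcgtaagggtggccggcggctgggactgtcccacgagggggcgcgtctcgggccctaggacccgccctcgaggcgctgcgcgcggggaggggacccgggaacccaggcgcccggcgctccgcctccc
MOB1B, chr4:70902119-70902368, + strand: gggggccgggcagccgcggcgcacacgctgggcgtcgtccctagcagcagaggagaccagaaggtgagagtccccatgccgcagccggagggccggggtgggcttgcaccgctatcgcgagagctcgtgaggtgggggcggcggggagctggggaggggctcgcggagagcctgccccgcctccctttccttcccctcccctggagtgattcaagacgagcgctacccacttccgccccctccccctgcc
LATS2, chr13:21061560-21061589, - strand: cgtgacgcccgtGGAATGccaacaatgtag
The motif was searched on both strands in 13 promoters of 9 members and matched in 1. Among all 35116 promoters listed, 14.0% hold it, so a match in 1 of 13 is no more than that share. G and C made up 72.7% of the 300 bases at WWC1, 70.7% at MOB1B and 67.7% at LATS2. A match is a stretch of letters and not a shown binding site.

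Of the upstream regulators WWC1 changed most. WWC1 (ENSG00000113645, chromosome 5, 168291651 to 168472303, GRCh38) was at 148, 151, 159 and 152 CPM in YH, 84.2, 86.8, 88.2 and 90.3 CPM in H2O2 and 214, 220.3, 221 and 206 CPM in ShNC. The 3 groups did not overlap, with H2O2 lowest, YH between and ShNC highest. In H2O2 against ShNC it fell by 59.4% (-1.30 ± 0.053 on the log2 scale, adjusted p = 2.6e-11). It rose in YH against H2O2 (0.80 ± 0.053, adjusted p = 1.1e-08), and it stayed below ShNC (-0.50 ± 0.053, adjusted p = 3.4e-06). No alternative ended any of these 3 calls.

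NF2 (ENSG00000186575, chromosome 22, 29603556 to 29698598) was at 89.1, 91.9, 87.0 and 82.9 CPM in YH, 83.1, 80.7, 90.6 and 85.3 CPM in H2O2 and 95.8, 98.7, 98.3 and 82.7 CPM in ShNC. The ranges overlapped, ShNC replicate 4 alone lying within the H2O2 range, and the difference of H2O2 from ShNC did not pass (-0.15 ± 0.068, interval -0.29 to -0.0012, adjusted p = 0.0918). It passed without ShNC replicate 4 (-0.21, adjusted p = 0.00402) and without both libraries of high mitochondrial share (-0.21, adjusted p = 4.9e-05). YH differed from H2O2 in NF2 by 0.047 ± 0.068 (interval -0.097 to 0.19, adjusted p = 0.609). Against ShNC YH differed by -0.098 ± 0.068 (adjusted p = 0.297), and by -0.16 without both libraries (adjusted p = 0.00325).

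TAOK1 (ENSG00000160551, chromosome 17, 29390464 to 29551904), the kinase at the head of the cascade, was at 151, 165, 169.8 and 160.1 CPM in YH, 157, 161, 160.3 and 165 CPM in H2O2 and 152, 153, 149 and 201 CPM in ShNC. Apart from ShNC replicate 4, which was highest of the 12, the libraries lay close together. None of the comparisons passed, with -0.024 ± 0.084 in H2O2 against ShNC (interval -0.20 to 0.15, adjusted p = 0.836), 0.0038 ± 0.084 in YH against H2O2 (interval -0.18 to 0.18, adjusted p = 0.976) and -0.021 ± 0.084 in YH against ShNC (interval -0.20 to 0.16, adjusted p = 0.877). Without both libraries of high mitochondrial share the first turned direction and passed (0.081, adjusted p = 0.0440).

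The MST kinase genes behaved unlike each other. STK3 (ENSG00000104375, chromosome 8, 98371228 to 98942827) was at 47.7, 45.6, 46.7 and 43.8 CPM in YH, 37.2, 34.9, 39.0 and 38.5 CPM in H2O2 and 42.7, 40.1, 41.7 and 57.0 CPM in ShNC. All 4 H2O2 libraries lay below every library of both other groups. STK3 fell in H2O2 against ShNC (-0.28 ± 0.096, adjusted p = 0.0261) and rose in YH against H2O2 (0.30 ± 0.096, adjusted p = 0.0205), while YH and ShNC did not differ detectably (0.018 ± 0.096, interval -0.19 to 0.22, adjusted p = 0.909). The fall was not called without H2O2 replicate 1 (-0.27, adjusted p = 0.0583) or 2 (-0.24, adjusted p = 0.0825) or with library totals alone (-0.19, adjusted p = 0.0703), and was -0.16 without both libraries of high mitochondrial share (adjusted p = 0.00681). The rise in YH was not called without H2O2 replicate 2 (0.26, adjusted p = 0.0678) or YH replicate 1 (0.28, adjusted p = 0.0523). Without both libraries of high mitochondrial share YH was above ShNC (0.13, adjusted p = 0.0388).

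STK4 (ENSG00000101109, chromosome 20, 44966474 to 45079959) was at 109, 113, 116 and 109 CPM in YH, 109.6, 107, 113 and 109.8 CPM in H2O2 and 107, 107, 108 and 137 CPM in ShNC, so that 11 of 12 libraries lay between 107 and 116 CPM. It was called in no comparison (adjusted p = 0.545, 0.831 and 0.751), and the 95% intervals were -0.22 to 0.10 in H2O2 against ShNC, -0.14 to 0.18 in YH against H2O2 and -0.20 to 0.12 in YH against ShNC. Without both libraries of high mitochondrial share the first difference was 0.029 (adjusted p = 0.501).

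SAV1 (ENSG00000151748, chromosome 14, 50632058 to 50668331), which shares 14.9% of its exon bases with ATL1 and is uncertain to that extent, was at 30.8, 27.6, 26.5 and 32.4 CPM in YH, 37.7, 38.2, 38.4 and 38.9 CPM in H2O2 and 34.2, 33.9, 33.6 and 28.8 CPM in ShNC. The H2O2 libraries all lay above the rest, and YH and ShNC overlapped. SAV1 rose in H2O2 against ShNC (0.23 ± 0.079, adjusted p = 0.0243) and fell in YH against H2O2 (-0.38 ± 0.079, adjusted p = 0.000953). The rise was not called without ShNC replicate 4 (0.17, adjusted p = 0.0505), without H2O2 replicate 4 (0.23, adjusted p = 0.0575) or without the filter on low counts (0.22, adjusted p = 0.0593). YH differed from ShNC by -0.15 ± 0.079 (adjusted p = 0.155). That last difference passed without ShNC replicate 4 (-0.22, adjusted p = 0.0199) and without both libraries (-0.17, adjusted p = 0.0121).

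Both LATS kinase genes were higher in YH than in H2O2 and ShNC. LATS2 (ENSG00000150457, chromosome 13, 20973032 to 21061547) was at 71.2, 74.8, 69.1 and 75.5 CPM in YH, 51.3, 52.8, 53.4 and 54.2 CPM in H2O2 and 67.0, 63.0, 63.3 and 53.3 CPM in ShNC. YH lay above every other library, and ShNC replicate 4 lay within the H2O2 range, apart from the other ShNC libraries. LATS2 fell in H2O2 against ShNC (-0.22 ± 0.070, adjusted p = 0.0173), rose in YH against H2O2 (0.46 ± 0.070, adjusted p = 7.6e-05) and rose in YH against ShNC (0.24 ± 0.070, adjusted p = 0.0163). The fall was not called without ShNC replicate 1 (-0.18, adjusted p = 0.0667) or H2O2 replicate 1 (-0.20, adjusted p = 0.0556) or with library totals alone (-0.14, adjusted p = 0.230), but was larger, at -0.29, without both libraries of high mitochondrial share (adjusted p = 2.5e-07). The rise against ShNC was not called with library totals alone (0.25, adjusted p = 0.0511) or in a fit of those 8 libraries (0.23, adjusted p = 0.0614).

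LATS1 (ENSG00000131023, chromosome 6, 149658153 to 149718256) was at 71.3, 75.3, 82.7 and 75.3 CPM in YH, 56.7, 57.4, 64.1 and 60.2 CPM in H2O2 and 54.5, 53.2, 54.9 and 72.6 CPM in ShNC. All YH libraries lay above all H2O2 libraries, and of the ShNC libraries only replicate 4 reached the YH range. LATS1 rose in YH against H2O2 (0.35 ± 0.092, adjusted p = 0.00572) and against ShNC (0.37 ± 0.092, adjusted p = 0.00563). H2O2 and ShNC did not differ detectably (0.020 ± 0.092, interval -0.18 to 0.22, adjusted p = 0.882), whereas without both libraries of high mitochondrial share H2O2 was higher (0.13, adjusted p = 0.0132).

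The MOB1 co-activator genes rose with hydrogen peroxide and were lower in YH than in H2O2. MOB1B (ENSG00000173542, chromosome 4, 70902326 to 71022449) was at 56.1, 58.3, 47.1 and 56.7 CPM in YH, 79.3, 77.2, 79.3 and 88.1 CPM in H2O2 and 50.3, 48.5, 50.8 and 54.6 CPM in ShNC, with H2O2 above both other groups and YH and ShNC overlapping. It rose by 58.6% in H2O2 against ShNC (0.67 ± 0.075, adjusted p = 2.5e-06) and fell in YH against H2O2 (-0.57 ± 0.075, adjusted p = 1.7e-05). The difference of YH from ShNC did not pass (0.096 ± 0.075, interval -0.064 to 0.26, adjusted p = 0.362), but did without both libraries of high mitochondrial share (0.19, adjusted p = 0.00171).

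MOB1A (ENSG00000114978, chromosome 2, 74152528 to 74178898) was at 164, 162, 164 and 172 CPM in YH, 242, 230.0, 235 and 252 CPM in H2O2 and 191, 181, 190.1 and 235 CPM in ShNC. YH lay below both other groups, and ShNC replicate 4 reached into the H2O2 range. MOB1A rose in H2O2 against ShNC (0.27 ± 0.074, adjusted p = 0.00712), fell in YH against H2O2 (-0.53 ± 0.074, adjusted p = 2.9e-05) and was lower in YH than in ShNC (-0.27 ± 0.074, adjusted p = 0.0118). The paralogs stood on different sides of ShNC in YH without both libraries of high mitochondrial share, MOB1B at 0.19 and MOB1A at -0.18 (adjusted p = 0.000237). Reads that match both paralogs may have been split or dropped in the counting, which is not given in the sources used here.

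**Figure D2:**
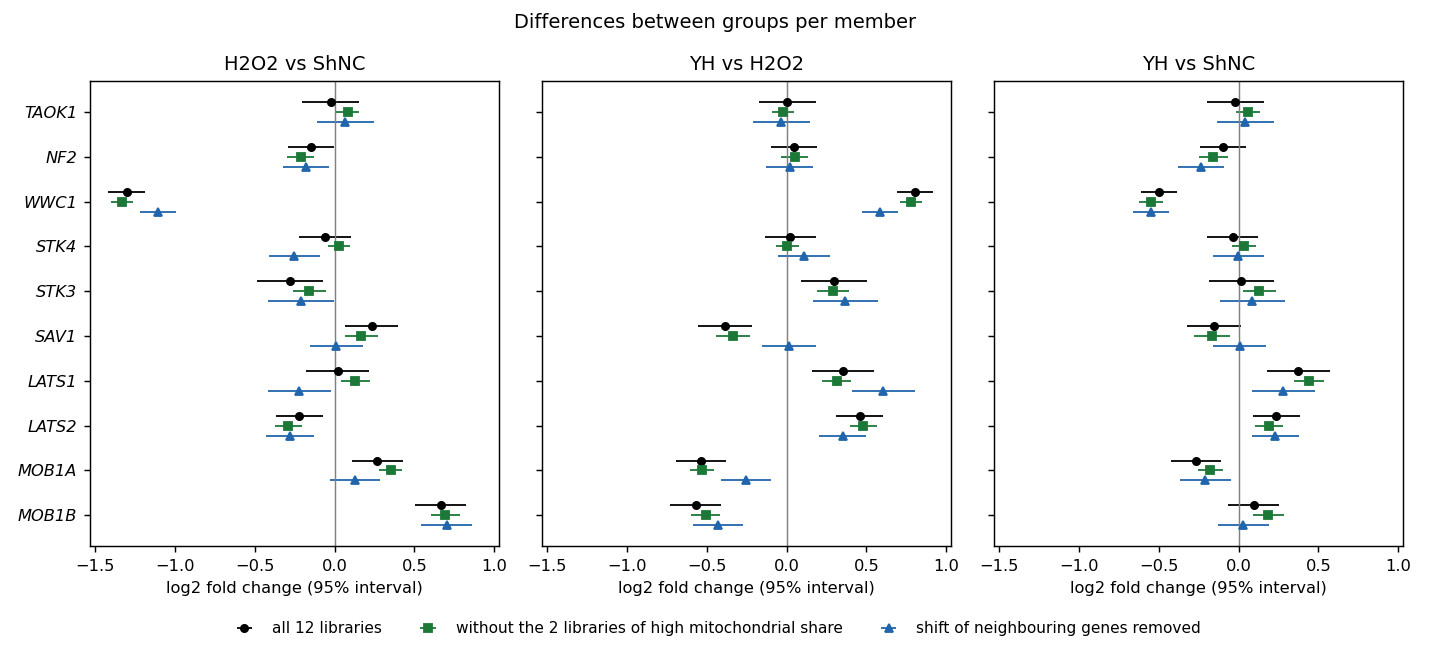
Log2 fold changes of the 10 genes in the 3 comparisons, with 95% intervals; circles use all 12 libraries, squares leave out YH replicate 3 and ShNC replicate 4, and triangles remove the neighbours' shift. WWC1 lies at -1.30 in H2O2 against ShNC, and SAV1 moves to 0.012 and 0.014 in the first 2 comparisons once its neighbours' shift is removed.

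Groups in these data also differed by chromosome region, so each gene was set beside the 50 nearest tested genes on its chromosome. The median of those genes was removed as a fixed value, so p-values after its removal leave out the uncertainty of that median. Around SAV1 the median log2 fold change of those neighbours was 0.22 in H2O2 against ShNC and -0.40 in YH against H2O2, close to the values of SAV1 itself. With that shift removed neither difference of SAV1 passed (0.012, adjusted p = 0.918, and 0.014, adjusted p = 0.908). The neighbours of MOB1A moved by 0.14 and -0.28, and its rise in H2O2 then no longer passed (0.13, adjusted p = 0.176) while its fall in YH shrank to -0.25 (adjusted p = 0.0127). For LATS1, whose neighbours were at 0.24 and -0.25, the difference of YH from H2O2 grew to 0.61 (adjusted p = 8.7e-05) and that of H2O2 from ShNC turned to -0.22 (adjusted p = 0.0665). WWC1, LATS2 and MOB1B kept their calls in both comparisons, WWC1 at -1.11 and 0.58, LATS2 at -0.28 and 0.35, and MOB1B at 0.70 and -0.43. The fall of STK3 in H2O2 did not pass (-0.21, adjusted p = 0.0910), and STK4 (-0.25, adjusted p = 0.0132) and NF2 (-0.18, adjusted p = 0.0443) then passed as lower. The call of STK4 rests on its neighbours' median of 0.19, since its own difference was -0.060. In YH against ShNC NF2 passed too (-0.24, adjusted p = 0.0134). In total, 5 of 10 members were then called in H2O2 against ShNC, where 43.1% of all genes were, 6 in YH against H2O2 (39.4%) and 5 in YH against ShNC (33.5%). What moved the genes of a region together was not tested.

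Ratios between paralogs within a library do not depend on the scaling of libraries. They are given per exon base, on the log2 scale, as a description with no test. The bases are those of all annotated exons merged. The size of a ratio or share depends on that length, while the order of libraries does not. The ratio of STK4 to STK3 was 1.66, 1.78, 1.78 and 1.79 in YH, 2.03, 2.09, 2.01 and 1.98 in H2O2 and 1.79, 1.89, 1.84 and 1.74 in ShNC. Every H2O2 library lay above every library of the other groups, and STK4 made up 77.1 ± 0.756% of the pair in YH, 80.3 ± 0.519% in H2O2 and 77.9 ± 0.777% in ShNC.

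For MOB1B to MOB1A the ratio was -2.004, -1.93, -2.25 and -2.05 in YH, -2.06, -2.03, -2.02 and -1.97 in H2O2 and -2.37, -2.35, -2.35 and -2.55 in ShNC. Both groups with hydrogen peroxide lay above ShNC in every library and overlapped each other, so MOB1B made up 19.4 ± 1.46% of the pair in YH, 19.8 ± 0.445% in H2O2 and 15.9 ± 0.894% in ShNC. For LATS2 to LATS1 it was 0.63, 0.62, 0.37 and 0.64 in YH, 0.49, 0.51, 0.37 and 0.48 in H2O2 and 0.93, 0.88, 0.84 and 0.19 in ShNC. Here the groups overlapped through YH replicate 3 and ShNC replicate 4, and among the other 10 libraries ShNC was highest, YH between and H2O2 lowest.

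**Figure D3:**
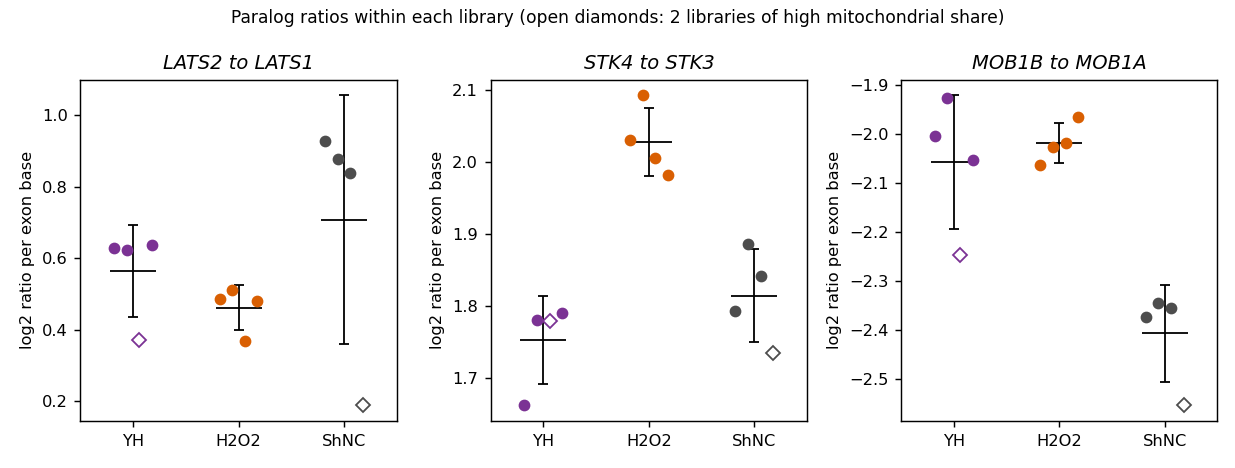
Log2 ratio per exon base of LATS2 to LATS1, STK4 to STK3 and MOB1B to MOB1A in each library (YH, H2O2, ShNC); points are libraries, open diamonds YH replicate 3 and ShNC replicate 4, and the line and bar the mean and SD of 4. STK4 to STK3 was highest in H2O2 (1.98 to 2.09), and MOB1B to MOB1A was lowest in ShNC (-2.55 to -2.35).

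Levels of different genes were compared per exon length, as TPM (a gene's share of a library's counts per exon base), computed from the deposited counts. The length merges all annotated exons of a gene (12597 bases for STK3, 5630 for SAV1). Which transcripts the cells used was not measured, so the order of genes depends on these lengths. MOB1A was the most abundant of the 10 in each group, at 92.3 ± 12.6 TPM in YH, 144 ± 5.55 TPM in H2O2 and 104 ± 6.28 TPM in ShNC, with no overlap with the next gene. STK3 was last, at 13.1 ± 1.60 TPM in YH, 11.5 ± 0.529 TPM in H2O2 and 12.03 ± 0.355 TPM in ShNC. In YH its range overlapped that of SAV1, its neighbour in the order, though SAV1 was above STK3 within each library. WWC1 stood second in YH (54.1 ± 5.53 TPM) and ShNC (73.1 ± 13.1 TPM) but seventh in H2O2 (33.5 ± 1.00 TPM), after STK4, NF2, LATS2, TAOK1 and MOB1B. Its range in H2O2 overlapped that of MOB1B, though MOB1B was above WWC1 within each H2O2 library. ShNC replicate 4 gave the lowest WWC1 level of its group, 53.5 TPM, against 80.3 TPM in the highest library. TPM are not scaled by TMM factors, and in CPM the same library had 206, against 221 in the highest ShNC library. In YH, from WWC1 through LATS2, STK4, NF2 and TAOK1 to LATS1, the range of each gene overlapped that of the next. WWC1 still lay wholly above TAOK1 and LATS1, and LATS2, STK4 and NF2 lay wholly above LATS1. Within each YH library WWC1 was above LATS2, NF2 above TAOK1 and TAOK1 above LATS1. The orders of LATS2 and STK4 and of STK4 and NF2 differed between YH libraries. In ShNC NF2, STK4, LATS2 and TAOK1 likewise overlapped from one to the next, while every STK4 value lay above every TAOK1 value.

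**Figure D4:**
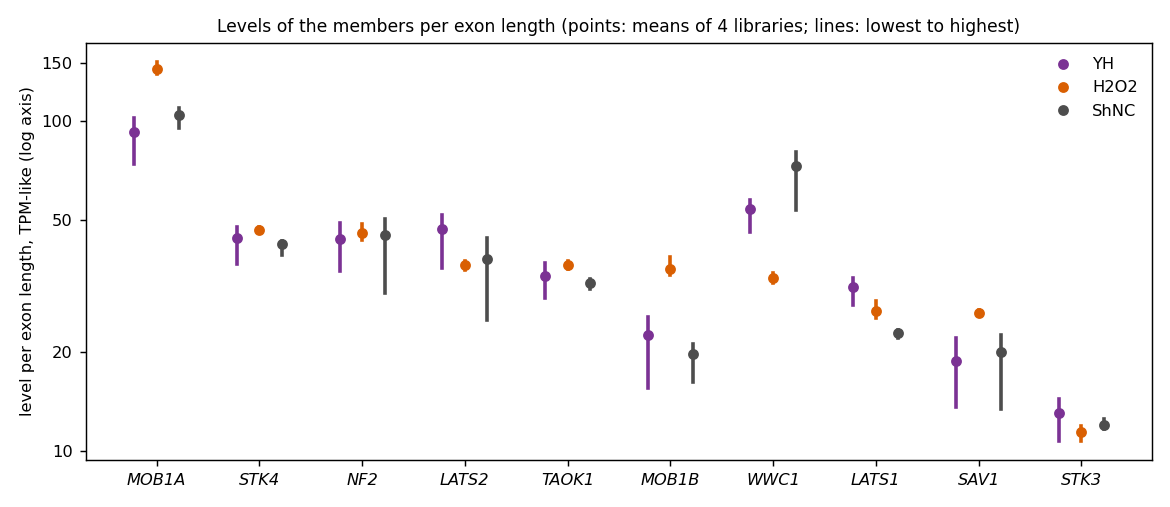
Level per exon length of the 10 genes (TPM, log axis), ordered by their mean in H2O2; points are means of 4 libraries and lines run from the lowest to the highest library, for YH, H2O2 and ShNC from left to right. MOB1A is highest in all groups and WWC1 drops to 32.2 to 34.6 TPM in H2O2.

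WWC1 had the largest change of the 10, and the genes whose log2 CPM followed it most closely over the 12 libraries were sought among 11525 others with a mean of at least 5 CPM. They were GAPDH, a glycolytic enzyme (Pearson r = 0.997), LRRC61 (0.995), DIAPH1, a formin that nucleates actin (0.994), LAMC1, the laminin gamma 1 chain (0.993), and GOLM1 (0.992). LAMC1 was at 880.0 ± 23.3 CPM in YH, 495 ± 5.85 CPM in H2O2 and 1383 ± 67.0 CPM in ShNC. The libraries fall into 3 groups, which all genes share, and 274 of the 11525 genes had r above 0.95, so the values describe a common order of group means.

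Outside the 10 genes, 86 other pathway genes in 6 lists were counted, of which 83 were tested; FRMD1, FAT3 and TRAF3IP3 were too low. In H2O2 against ShNC 31 of the 83 were higher and 19 lower, where 23.9% and 22.6% of all tested genes were. YH had 21 higher and 22 lower than H2O2, where 22.0% and 21.0% of all genes were. The 83 genes include YAP1, the target of the hairpin, which is among the 22. The 19 lower in the first comparison are thus near the share of all genes, and the same shares are the background for each list that follows. Without both libraries of high mitochondrial share the counts were 39 and 26 (all genes 29.8% and 29.6%), and 28 and 30 (28.8% and 28.5%). Once neighbours' shifts were removed they were 30 and 18 (all genes 43.1% in either direction), and 18 and 21 (39.4%). The median log2 fold change of all tested genes was 0.0040 in the first comparison and -0.0041 in the second.

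Of 16 other kinases, listed here as parallel to the core, 10 were higher with hydrogen peroxide and 0 lower (all genes 23.9% and 22.6%), with a median of 0.35. The list holds the MAP4K family, which can activate LATS kinases without MST kinases. It also holds other kinases, such as MARK4, which was among those higher, and the count does not separate activators of LATS kinases from the rest. MAP4K4 rose to 584 ± 14.7 CPM in H2O2, against 243 ± 3.54 CPM in ShNC (1.27 ± 0.051, adjusted p = 2.1e-11). STK38L, which encodes the LATS-related kinase NDR2, rose too (1.19 ± 0.092, adjusted p = 3.4e-08). Leaving out both libraries of high mitochondrial share gave 11 higher and 2 lower, as did removing the neighbours' shifts. Of the 16, 7 were lower and 3 higher in YH against H2O2 (median -0.18; 10 and 4 without both libraries). MAP4K4 (-0.94 ± 0.051, adjusted p = 1.1e-09) and STK38L (-0.77 ± 0.090, adjusted p = 5.6e-06) fell, and MARK2 (0.40 ± 0.089, adjusted p = 0.00164) and STK24 (0.38 ± 0.061, adjusted p = 9.9e-05) rose. Another gene overlaps 63.5% of the exon bases of STK24, which makes its value uncertain.

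Scaffolds and inputs from junctions and polarity complexes were divided, with 7 of 27 higher and 10 lower in H2O2 against ShNC (median -0.054). The counts were 9 and 11 without both libraries, and 7 and 7 once neighbours' shifts were removed. FRMD6, a FERM protein that acts upstream of the kinases, was at 449 ± 36.4 CPM in H2O2 and 85.7 ± 6.94 CPM in ShNC (2.39 ± 0.12, adjusted p = 2.0e-10). WWC3, a paralog of WWC1, rose (0.79 ± 0.076, adjusted p = 4.3e-07), opposite in sign to WWC1. The polarity genes PARD6B (-1.18 ± 0.080, adjusted p = 8.8e-09) and PATJ (-0.66 ± 0.064, adjusted p = 5.2e-07) fell. Among the same 27, 10 were higher and 4 lower in YH against H2O2 (median 0.080; 11 and 5 without both libraries). PARD6B (1.27 ± 0.080, adjusted p = 6.9e-09) and the large cadherin FAT4 (1.13 ± 0.068, adjusted p = 4.0e-09) rose, FRMD6 fell (-0.77 ± 0.11, adjusted p = 4.2e-05; -0.45 with its neighbours' shift removed), and PALS1 fell (-0.38 ± 0.077, adjusted p = 0.000915) but not with that shift removed (-0.17, adjusted p = 0.0886).

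Of 6 RASSF genes, adaptors of which several bind MST kinases, 2 were higher and 0 lower in H2O2 against ShNC (median 0.11; 3 and 1 without both libraries). These were RASSF5 (0.68 ± 0.086, adjusted p = 8.2e-06) and RASSF6 (0.68 ± 0.075, adjusted p = 2.1e-06). In YH against H2O2 4 were lower and 1 higher (median -0.26; the same counts without both libraries, but 2 and 1 once neighbours' shifts were removed). RASSF2 (-0.67 ± 0.084, adjusted p = 1.1e-05) and RASSF5 (-0.33 ± 0.085, adjusted p = 0.00525) fell, and RASSF6 rose (0.59 ± 0.074, adjusted p = 1.1e-05). With its neighbours' shift removed RASSF5 was at 1.154 in H2O2 against ShNC and -0.80 in YH against H2O2, both larger in size.

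Among 16 tested genes that hold the kinases back, subunits of the STRIPAK phosphatase complex and LIM proteins that bind LATS kinases, 7 were higher and 2 lower in H2O2 against ShNC (median 0.091). The counts were 8 and 4 without both libraries, and 5 and 4 once neighbours' shifts were removed. WTIP rose (1.27 ± 0.14, adjusted p = 1.7e-06) and its paralog AJUBA fell (-0.61 ± 0.10, adjusted p = 0.000148). PPP2R1B, a phosphatase scaffold, fell (-0.51 ± 0.10, adjusted p = 0.000757). STRN, the STRIPAK scaffold striatin, rose (0.38 ± 0.095, adjusted p = 0.00369), but not with its neighbours' shift removed (0.089, adjusted p = 0.483). In YH against H2O2 4 were lower and 1 higher (median -0.087), 7 and 4 without both libraries, and 4 and 2 once neighbours' shifts were removed. STRIP2 (-0.80 ± 0.067, adjusted p = 1.5e-07) and WTIP (-0.63 ± 0.13, adjusted p = 0.00139) fell, and PPP2R1A rose (0.16 ± 0.052, adjusted p = 0.0224, and 0.29 with its neighbours' shift removed).

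Ubiquitin ligases of pathway proteins were lower in 5 of 11 and higher in 2 in H2O2 against ShNC (median -0.18). The counts were 6 and 3 without both libraries, and 4 and 3 once neighbours' shifts were removed. NEDD4 was at 144 ± 7.42 CPM in H2O2 and 285 ± 30.5 CPM in ShNC (-0.99 ± 0.073, adjusted p = 2.3e-08). SIAH2 fell (-0.76 ± 0.12, adjusted p = 7.2e-05), but not with its neighbours' shift removed (-0.074, adjusted p = 0.652). BTRC (0.41 ± 0.062, adjusted p = 5.7e-05) and ITCH (0.22 ± 0.050, adjusted p = 0.00211, and 0.39 with its neighbours' shift removed), a ligase of LATS1, rose. Against H2O2, YH had 5 of them higher and 0 lower (median 0.11; 6 and 1 without both libraries, but 2 and 1 once neighbours' shifts were removed). NEDD4L rose (1.17 ± 0.092, adjusted p = 7.4e-08), and SIAH2 rose (0.90 ± 0.12, adjusted p = 1.9e-05) but not with the shift removed (0.23, adjusted p = 0.149).

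Downstream of the kinases, 3 of 7 effector genes were higher and 2 lower in H2O2 against ShNC (median 0.22; 5 and 2 without both libraries, but 2 and 0 once neighbours' shifts were removed). VGLL4, a competitor of YAP for TEAD factors, rose (0.74 ± 0.074, adjusted p = 6.4e-07, with 23.7% of its exon bases shared). In YH against H2O2 1 was higher and 3 lower (median 0.013). The counts were 2 and 3 without both libraries, but 0 and 2 once shifts were removed. YAP1, the gene the hairpin targets, belongs to this list and was among those lower each time. WWTR1, which encodes TAZ, was at -0.44 ± 0.072 in the first comparison and 0.58 ± 0.072 in the second (adjusted p = 0.000128 and 1.0e-05). With its neighbours' shift removed the first turned to 0.24 (adjusted p = 0.0142), and the second did not pass (-0.076, adjusted p = 0.436). TEAD2 (0.44 ± 0.12 and -0.42 ± 0.12) lost both calls in that way (adjusted p = 0.217 and 0.849), and so did the fall of TEAD4 in H2O2 (-0.23 ± 0.078, then adjusted p = 0.0633), whereas the fall of TEAD1 in YH stayed (-0.33 ± 0.098, adjusted p = 0.0134, then 0.0193).

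**Figure D5:**
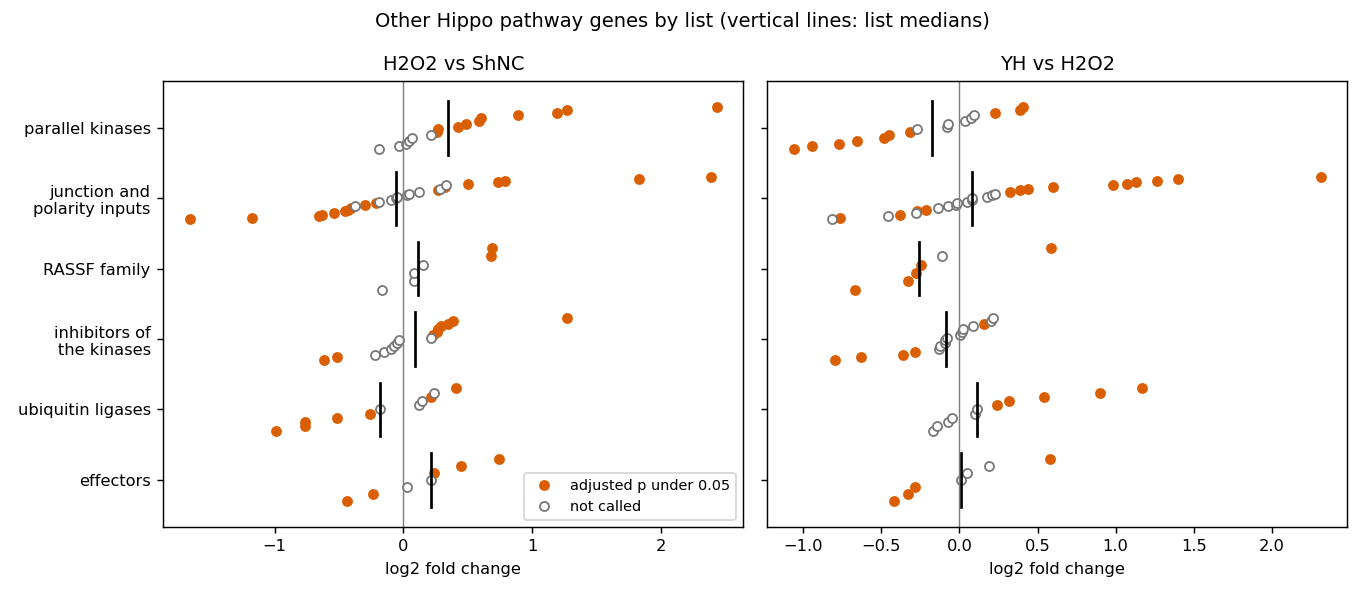
Log2 fold changes of 83 other Hippo pathway genes in 6 lists, in H2O2 against ShNC and in YH against H2O2; filled points are called at an adjusted p under 0.05, open points are not, and vertical lines are list medians. The parallel kinases have a median of 0.35 in the first comparison and -0.18 in the second. YAP1 is among the effectors.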

How the data were processed

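The deposited tables hold raw counts, 1 whole number per gene and library, which the authors did not scale or pool, as the values show. Per the labels, mRNA was isolated with oligo(dT) beads. GRCh38 (hg38), HISAT2, Subread, featureCounts and DESeq2 appear, with no role or version, per the submitters' processing notes. No source used here gives the annotation, the strand setting or how multiply matching reads were counted, so reads of overlapping genes cannot be assigned with certainty. The labels name HK-2 as the cells but mention kidney tissue for RNA extraction. Groups and replicate numbers come from the titles.

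Counts were tested with edgeR 4.0.16 (R 4.3.3): filterByExpr by group, TMM factors, a robust quasi-likelihood fit with 1 mean per group over 12 libraries, and Benjamini-Hochberg adjustment at 0.05. The fit was also run on counts simulated from its own dispersions, with no deviating library. This checked the code and not how well the fit suits these data. Symbols came from the given gene names (40555) and GENCODE 29 (85), whose GRCh38 exons gave lengths and overlaps. Chi-square per degree of freedom between replicates was at least 2.96, so no library was a copy. The neighbours' shift is the median log2 fold change in a window of 51 tested genes, without the gene itself, entered as a fixed offset. DESeq2 1.42.0, its size factors, library totals alone, no filter, 8-library fits, a replicate block and leaving out libraries were alternatives. Beyond the 10 members and YAP1, at most 2 rises and 2 falls per list and comparison, at 5 CPM or more, and the 5 genes most like WWC1 are named. The members and lists were chosen with earlier results of these data known.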

Additional observations from a re-analysis of the deposited data

Results flagged for a closer look

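In 5 of 33 groups of 4 libraries, for the 10 genes and YAP1, a single library lay further from its group than Dixon's criterion allows, where chance gives about 1 in 20. All 5 were ShNC replicate 4, the library with 13.9% of counts from mitochondrially encoded genes. The genes were counted in the same libraries, so the 33 groups are not independent and the 5 flags are not separate events. On the scale of TMM-scaled CPM, ShNC replicate 4 had 200.8 CPM of TAOK1, 137 CPM of STK4, 57.0 CPM of STK3 and 72.6 CPM of LATS1. Each of these was above the other ShNC libraries, and its 28.8 CPM of SAV1 was below them. The other 3 ShNC libraries averaged 151 ± 2.32 CPM of TAOK1, 107 ± 0.539 CPM of STK4, 41.5 ± 1.30 CPM of STK3, 54.2 ± 0.915 CPM of LATS1 and 33.9 ± 0.332 CPM of SAV1 (SD, n = 3). As TPM, which used no TMM factors, the high values were not seen. Beside each gene's length, going from CPM to TPM scales all genes of a library by a common factor. The change is therefore one of the whole library and not of these genes. ShNC replicate 4 was then lowest of its group for TAOK1 (30.9 TPM), STK4 (39.4 TPM) and LATS1 (21.9 TPM). It was within the range of the other ShNC libraries for STK3 (11.8 TPM) and lowest for SAV1 (13.4 TPM). The part of the mitochondrial share in these values was not tested.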

How the results depend on the processing

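Of 600 log2 fold changes of the members under the 20 alternatives, 540 kept direction and side of the threshold, 16 lost and 12 gained a call, and 32 changed sign. The sign of the called fall of SAV1 in YH against H2O2 changed with the neighbours' shift removed (0.014), and every other sign change was of a difference that was not called. Those with the shift removed were TAOK1 (0.066) and LATS1 (-0.22) in H2O2 against ShNC, TAOK1 in YH against H2O2 (-0.033), and TAOK1 (0.042), SAV1 (0.0062) in YH against ShNC. YAP1, which is not a member and not in these counts, changed sign there too (0.0024). With library totals alone they were TAOK1 (0.065) and STK4 (0.029) in H2O2 against ShNC, TAOK1 (-0.060), NF2 (-0.014) and STK4 (-0.040) in YH against H2O2, and TAOK1 in YH against ShNC (0.0055). Without both libraries of high mitochondrial share they were TAOK1 (0.081) and STK4 (0.029) in H2O2 against ShNC, TAOK1 in YH against H2O2 (-0.022), and TAOK1 (0.059) and STK4 (0.034) in YH against ShNC, where 8 members were called instead of 4. Leaving out 1 library gave ranges across 0 for TAOK1 (-0.067 to 0.082), STK4 (-0.098 to 0.030) and LATS1 (-0.032 to 0.13) in H2O2 against ShNC, for TAOK1 in YH against H2O2 (-0.020 to 0.036), and for TAOK1 (-0.064 to 0.085), STK4 (-0.074 to 0.052) and STK3 (-0.042 to 0.14), as well as YAP1 (-0.088 to 0.016), in YH against ShNC. Members called then numbered 4 to 6, 6 to 7 and 4 to 6 in the 3 comparisons, against 6, 7 and 4, while 8067 to 10038, 7196 to 9684 and 5346 to 7298 of all genes were called. With DESeq2 and with its size factors the members were again 6, 7 and 4, among 9347, 8654 and 6783 genes with DESeq2 and 8993, 8277 and 6274 with its size factors. Library totals alone shifted the median of all genes by 0.082, -0.062 and 0.021. With the replicate number as a block 6, 7 and 4 members and 8536, 7798 and 5731 of all genes were called, against 8971, 8288 and 6265. Of 12 same-number pairs 4 had a correlation of deviations from the group means over 0.1, against 11 of 36 other pairs. This count cannot settle whether numbers pair the samples, since the group means include YH replicate 3 and ShNC replicate 4. The deviations of these libraries, whose numbers differ, had the highest correlation of all pairs (0.60). The cause of each change was not tested.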

Other observations

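Between the libraries labelled YH and ShNC, 27 of the 83 tested pathway genes outside the core were higher, where 17.4% of all genes were, and 13 were lower, near the 15.1% of all genes. Without both libraries of high mitochondrial share 38 and 18 were (all genes 24.0% and 22.8%). FRMD6 was at 264 ± 47.9 CPM in YH and 85.7 ± 6.94 CPM in ShNC (1.62 ± 0.11, adjusted p = 5.2e-08). RASSF6 was at 30.6 ± 1.66 CPM in YH and 12.7 ± 0.775 CPM in ShNC (1.27 ± 0.075, adjusted p = 1.1e-08). FAT4 rose too (0.83 ± 0.068, adjusted p = 2.2e-07), and MAP4K4 stayed above ShNC (0.33 ± 0.050, adjusted p = 0.000140). NEDD4 was lower in YH (-0.89 ± 0.073, adjusted p = 2.5e-07) while its paralog NEDD4L was higher (0.40 ± 0.091, adjusted p = 0.00286). PARD6B, at 88.7 ± 7.55 CPM in YH and 83.3 ± 7.67 CPM in ShNC, did not pass (0.091 ± 0.079, adjusted p = 0.412).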
